A study of Mus musculus with 6 samples.

Results

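Collagens, laminins, fibulins, fibrillins, matrix proteases with their inhibitors, and 9 further genes of the extracellular matrix were followed in optic nerves that lack leukemia inhibitory factor (LIF) and in wild-type nerves. The genes were taken by symbol: every gene whose symbol begins with Col, Lama, Lamb, Lamc, Fbln, Fbn, Mmp, Timp or Adamts in the numbered form of those families, plus Sparc, Fn1, Dcn, Lum, Fmod, Ogn, Spock1, Fap and Cemip2. The array annotation named 101 such genes, of which 63 had values that could be tied to a gene and are described here, among 6616 named genes tested in all. The other 38 are not analysed here. Each gene was represented by its brightest probe.

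The knockout pools came from LIF-/- mice kept on the CD1 background, and the controls were CD1 wild-type mice. All animals are labelled male, and nerves were not treated after dissection. LIF-/- pools and CD1 wild-type pools were made at postnatal days 10, 14 and 35, the last called adult in the labels, from 10, 8 and 4 nerves per pool. There was 1 array per genotype and age, 6 in all with no second pool in any group, and a genotype difference at 1 age is therefore given without a test. Adjusted p-values measure how single pooled arrays scatter around a model that shares the spread over ages and genotypes, in which genotypes stand in for replicates of an age and ages for replicates of the genotype difference. The series asks how LIF, a secreted cytokine whose receptor activates STAT3, bears on the timing of oligodendrocyte and myelin formation after birth.

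The extracellular matrix of a nerve lies in its sheath, in the septa and in the basement membranes around vessels and under the glial surface. Fibrillar collagens, decorated by small leucine-rich proteoglycans, carry tension in the sheath and septa, while collagen IV and laminin networks form the basement membranes. Metalloproteases of the Mmp and Adamts families cut these proteins, Timp proteins inhibit them, and in growing tissue collagen synthesis is known to run high and to slow with maturity.

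Values are log2 of the normalized bead intensity, called log2 signal below, and a probe counts as detected on an array when its detection p is below 0.05. Each array detected 12222 to 13292 of its 24606 probes, and the median intensity lay between 51.8 and 61.9 units. Both arrays of day 35 lay on 1 slide and the other 4 on another, so that day 35 and slide cannot be told apart. The 18S control signal was 1576 and 1655 on the day 35 arrays and 3061 to 3812 on the others. The array number, not read depth, limits the precision. The probe of the targeted gene, Lif, stood at 5.71, 5.13 and 5.14 in knockout nerves at days 10, 14 and 35, against 5.47, 5.48 and 5.04 in wild-type nerves. These values lie near background in both genotypes, with detection p between 0.00487 and 0.0292, so they do not check the labels. Some arrays stood apart or went against their labels. The Y-linked gene Eif2s3y, with all pools labelled male, stood at 8.24, 9.15 and 4.39 in knockout nerves at days 10, 14 and 35, against 4.73, 9.34 and 5.61 in wild-type nerves. Kdm5d, the other Y-linked gene measured, went the other way at day 10: knockout minus wild type was -0.72, and 3.51 for Eif2s3y. Of these 2 genes, 1 was at background on the wild-type array of day 10. On the knockout array of day 35 both were, and on the remaining arrays neither was. Ucp1, a marker of brown fat, stood at 11.08 in knockout nerves of day 10 and at 6.19 in wild-type nerves of that age, while the muscle actin Acta1 stood at 11.29 in knockout nerves of day 35 and at 5.20 in their wild-type counterparts. Of the optic nerve's own cells, 11 mature oligodendrocyte and 9 astrocyte markers were measured and none was at background on any array. Of 6 oligodendrocyte precursor markers, 1 was at background on the knockout array of day 14. Up to 2 of 13 microglial and macrophage markers and up to 1 of 17 endothelial markers were at background on an array. In whole nerve, fewer cells of a type and less RNA per cell cannot be told apart.

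The matrix genes that differed with age were mostly lower in the older nerves, and 11 of the 20 that fell were collagens. At day 35 compared with day 10, 20 of 63 matrix genes fell and 6 rose (limma, adjusted p below 0.05), against 12.8% and 10.6% of all named genes, so that 31.7% of the matrix genes fell where 12.8% of named genes did. In both directions together 20.8% of all probes passed. The median difference was -0.59 over the matrix genes and -0.08 over all named genes. The fall was shared by both genotypes in direction: 46 of 63 were lower at day 35 in knockout and in wild-type nerves alike, 13 were higher in both, and 4 went opposite ways. Over all named genes, 44% were lower in both and 34.3% higher in both. All 63 passed the filter on dim probes, which asked for detection on at least 2 arrays, and 50 were detected on all 6 (89.4% of named genes were). Among these 50, where no gene entered through the age at which it was bright, 19 fell and 4 rose, or 38% and 8%. In a fit of only the 10656 probes detected on all 6 arrays, 21 of the 50 fell and 4 rose. Of all probes in that fit, 1342 fell and 1241 rose. Over all 63 matrix genes, the counts without normalization between arrays were 27 lower and 4 higher. In the authors' deposited table, taken as it stands and holding 60 of the matrix genes, they were 32 lower and 2 higher. Lower calls also grew over all probes: with quantile normalization 1409 of the 2878 that passed were lower and the rest higher. Without normalization between arrays 1904 of 2660 were lower. In the deposited table, where 8406 probes were tested, 2208 of 2731 were lower. The median of all probes moved by -0.24 and -0.27 under these scalings, against -0.04 with quantile normalization. The calls also depended on having all the arrays. With 1 array left out, its age keeps 1 array and the fit has 1 residual degree of freedom. Fewest calls remained without a day 10 array, among the matrix genes and over all probes alike. Such fits cannot tell the values of the array left out from the loss of that degree of freedom.

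**Figure D1:**
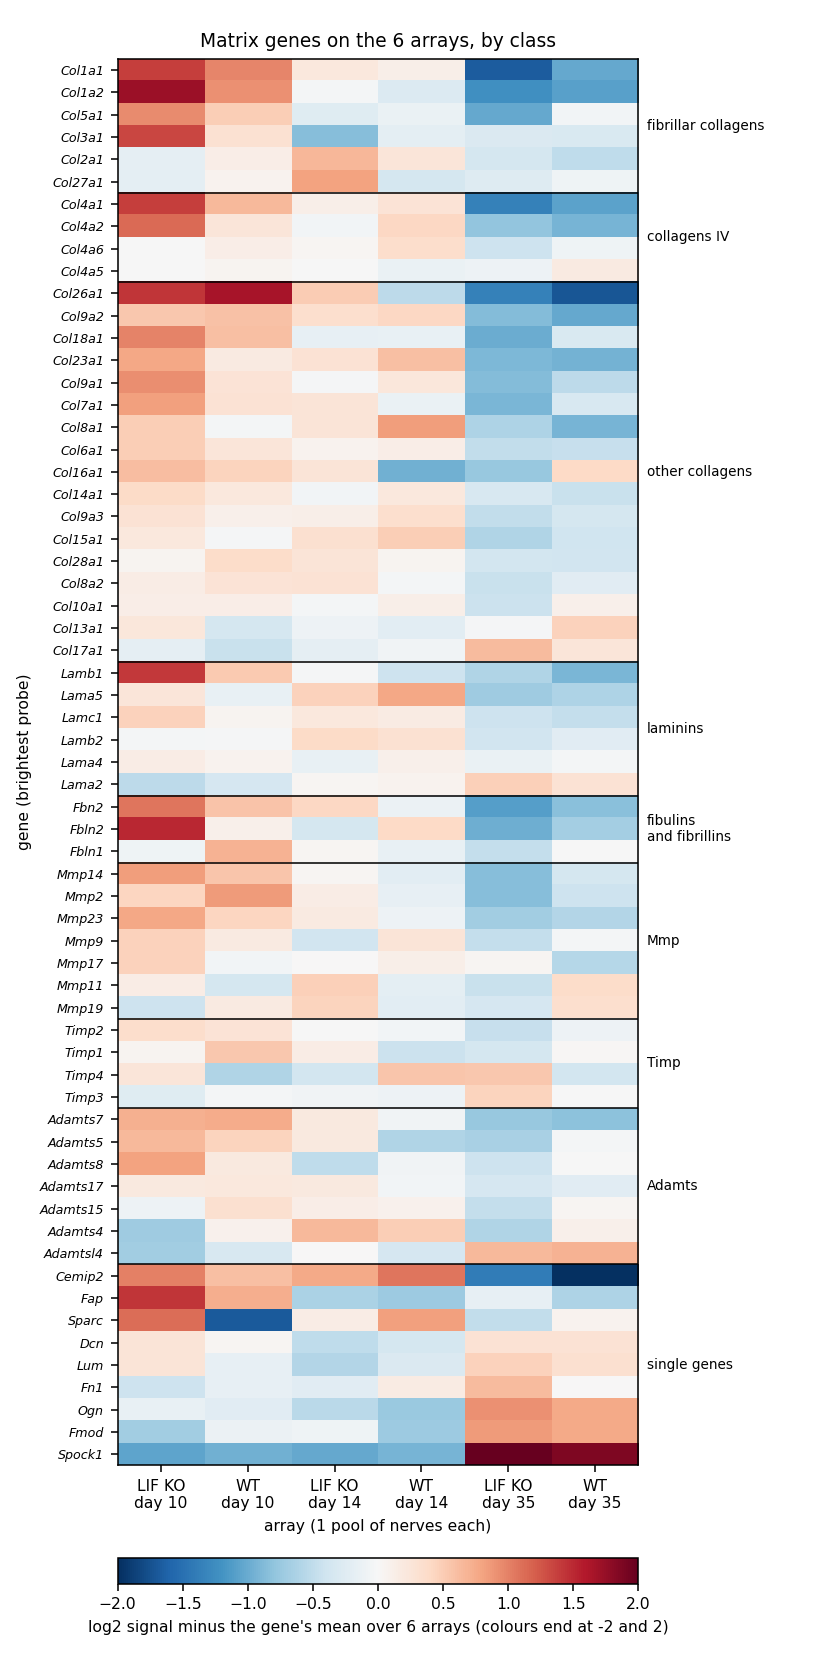
Log2 signal of the 63 matrix genes (rows, grouped by class) on the 6 arrays (columns, knockout left of wild type at each age), as the difference from each gene's mean over the arrays; red is above that mean and blue below, with colours ending at -2 and 2. The day 10 columns are mostly red and the day 35 columns mostly blue for collagens, laminins and Mmp genes, while Spock1, Ogn, Fmod and Lama2 run the other way.

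Of the 6 fibrillar collagens, which build the fibres of connective tissue, 2 fell and none rose at day 35 against day 10. Over all named genes 12.8% fell and 10.6% rose. All 6 were lower at day 35 in both genotypes, where 44% of named genes were, with a median difference of -1.18. Col1a1, a chain of type I collagen, stood at 11.13, 9.96 and 8.07 in knockout nerves at days 10, 14 and 35, against 10.72, 9.85 and 8.72 in wild-type nerves. It dropped at each step in both genotypes, and the day 35 values lay below all others. At day 35 Col1a1 fell by 2.53 ± 0.27 (SE) against day 10 (limma, adjusted p = 0.00989) and fell by 1.51 ± 0.27 against day 14 (adjusted p = 0.0285). Its partner Col1a2, the other type I chain, gave 9.82, 8.07 and 6.89 in knockout nerves at the 3 ages and 9.03, 7.83 and 7.02 in wild-type nerves. The ages again did not overlap, and Col1a2 fell by 2.47 ± 0.25 at day 35 against day 10 (adjusted p = 0.00942).

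The promoter of Col1a2 is shown because type I collagen promoters are known to be driven by the CCAAT-binding factor NF-Y. RefSeq windows of 300 bases (250 before and 50 after the gene start, build GRCm38.p6) were on hand for 41 of the 63 genes, 45 windows in all. CCAAT on either strand occurred in 33.3% of these windows and in 37.4% of all 32851 windows of the table. The Col1a2 window, chr6:4505368-4505667 on the plus strand, holds it at 2 places, in capitals, 1 of them read on the other strand as ATTGG.
Col1a2: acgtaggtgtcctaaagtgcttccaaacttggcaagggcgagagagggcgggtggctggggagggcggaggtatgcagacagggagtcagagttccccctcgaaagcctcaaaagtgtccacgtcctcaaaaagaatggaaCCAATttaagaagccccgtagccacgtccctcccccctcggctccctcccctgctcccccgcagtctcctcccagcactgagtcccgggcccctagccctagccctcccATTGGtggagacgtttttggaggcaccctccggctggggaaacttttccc

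Col3a1, type III collagen of vessel walls and loose tissue, stood at 12.20, 10.01 and 10.57 in knockout nerves at days 10, 14 and 35, against 11.16, 10.66 and 10.56 in wild-type nerves. The knockout array of day 10 was the high one, 1.04 above wild type, and the knockout array of day 14 the low one. Its difference of -1.12 ± 0.39 between days 35 and 10 missed the threshold (adjusted p = 0.0937), and a second, dimmer probe of Col3a1 gave 0.46 for the same comparison. Col5a1, type V collagen, which limits the width of type I fibrils, gave 10.15, 8.96 and 8.17 in knockout nerves and 9.68, 9.06 and 9.15 in wild-type nerves. The knockout value was lower at each age than at the one before, while the wild-type values of days 14 and 35 lay close together, and the difference of -1.25 ± 0.34 between days 35 and 10 missed the threshold (adjusted p = 0.0528). The cartilage collagens Col2a1 and Col27a1 were near background, between 4.74 and 5.95 on all arrays.

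Col4a1 and Col4a2, the chains of the common collagen IV network of basement membranes, both fell. Col4a1 stood at 11.39, 10.13 and 8.66 in knockout nerves at days 10, 14 and 35, against 10.65, 10.28 and 8.94 in wild-type nerves. Each age lay below the one before it in both genotypes, and Col4a1 fell by 2.22 ± 0.28 at day 35 against day 10 (adjusted p = 0.0114) and fell by 1.41 ± 0.28 against day 14 (adjusted p = 0.0324). Col4a2 gave 11.75, 10.56 and 9.82 in knockout nerves, against 10.86, 11.03 and 9.68 in wild-type nerves. The wild-type level was held to day 14 and dropped after it, while the knockout level dropped at each step. Col4a2 fell by 1.55 ± 0.32 at day 35 against day 10 (adjusted p = 0.0291), and its -1.04 against day 14 did not pass (adjusted p = 0.084).

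These 2 genes are known to lie head to head and to share a promoter, so their windows are shown side by side. The Col4a1 window (chr8:11312777-11313076, minus strand) and the Col4a2 window (chr8:11312555-11312854, plus strand) overlap over 78 bases, chr8:11312777-11312854, given in capitals as each gene's strand reads them. Both windows also hold CCAAT.
Col4a1: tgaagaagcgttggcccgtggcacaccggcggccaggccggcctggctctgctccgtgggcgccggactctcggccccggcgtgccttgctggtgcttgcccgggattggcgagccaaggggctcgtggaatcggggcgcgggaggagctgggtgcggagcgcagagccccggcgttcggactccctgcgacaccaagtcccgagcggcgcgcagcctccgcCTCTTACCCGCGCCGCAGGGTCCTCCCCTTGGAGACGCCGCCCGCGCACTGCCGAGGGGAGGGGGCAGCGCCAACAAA
Col4a2: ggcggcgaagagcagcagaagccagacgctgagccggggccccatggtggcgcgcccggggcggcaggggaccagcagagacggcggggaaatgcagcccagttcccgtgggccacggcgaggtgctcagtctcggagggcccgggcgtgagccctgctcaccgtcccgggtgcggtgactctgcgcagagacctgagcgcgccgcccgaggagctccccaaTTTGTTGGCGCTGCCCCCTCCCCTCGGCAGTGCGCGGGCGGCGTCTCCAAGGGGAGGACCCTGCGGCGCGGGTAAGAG

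The X-linked collagen IV genes did not pass in any contrast. Col4a5, mutated in human Alport syndrome, stood at 8.24, 8.24 and 8.15 in knockout nerves at days 10, 14 and 35, against 8.30, 8.12 and 8.43 in wild-type nerves. Its 6 values spanned no clear order, and the difference between days 35 and 10 was 0.02 ± 0.17. Col4a6, its neighbour on the X chromosome, ranged from 5.85 to 6.61 and differed by -0.31 ± 0.16 between the same ages (adjusted p = 0.203).

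Among 17 other collagens, 7 fell and 1 rose at day 35 against day 10, where 12.8% of named genes fell and 10.6% rose. The median difference was -0.71. Col26a1 gave 10.07, 9.16 and 7.29 in knockout nerves at days 10, 14 and 35, against 10.30, 8.12 and 6.94 in wild-type nerves. Both genotypes descended at each step, with the knockout array of day 14 standing 1.04 above its wild-type counterpart. At day 35 Col26a1 fell by 3.07 ± 0.31 against day 10 (adjusted p = 0.00942) and fell by 1.53 ± 0.31 against day 14 (adjusted p = 0.0334).

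Col18a1, a basement membrane collagen whose end is cut off as endostatin, stood at 10.54, 9.39 and 8.56 in knockout nerves, against 10.15, 9.40 and 9.24 in wild-type nerves. The knockout values kept dropping to day 35 and the wild-type values of days 14 and 35 lay close together, and Col18a1 fell by 1.45 ± 0.27 at day 35 against day 10 (adjusted p = 0.0239). Col15a1, a related collagen of the basement membrane zone, gave 6.46, 6.56 and 5.63 in knockout nerves and 6.21, 6.73 and 5.85 in wild-type nerves. Both day 35 values lay below the other 4, and Col15a1 fell by 0.90 ± 0.19 at day 35 against day 14 (adjusted p = 0.0348). Col6a1, a chain of the beaded filaments around cells, stood at 11.81, 11.39 and 10.82 in knockout nerves, against 11.56, 11.46 and 10.86 in wild-type nerves. The ages did not overlap, and Col6a1 fell by 0.84 ± 0.17 at day 35 against day 10 (adjusted p = 0.0273). A second probe of Col6a1 gave -0.80, while another, detected on 2 arrays, gave 0.78.

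Collagen IX, known from the surface of cartilage fibrils, was represented by all its chains. Col9a2 gave 8.86, 8.65 and 7.45 in knockout nerves at days 10, 14 and 35, against 8.90, 8.72 and 7.29 in wild-type nerves. The genotypes lay within 0.16 of each other at every age, and the drop came after day 14: Col9a2 fell by 1.31 ± 0.16 at day 35 against day 14 (adjusted p = 0.0183) and fell by 1.51 ± 0.16 against day 10 (adjusted p = 0.00989). Col9a1 stood at 8.95, 8.01 and 7.15 in knockout nerves and at 8.30, 8.25 and 7.50 in wild-type nerves. Day 35 lay lowest in both genotypes, and Col9a1 fell by 1.30 ± 0.28 against day 10 (adjusted p = 0.0309). Col9a3 was at background on both day 35 arrays, and its difference did not pass (adjusted p = 0.0612).

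Col23a1, a collagen anchored in the cell membrane, stood at 7.63, 7.15 and 5.96 in knockout nerves, against 7.03, 7.46 and 5.91 in wild-type nerves. Days 10 and 14 overlapped and day 35 lay more than 1 unit below them; Col23a1 fell by 1.39 ± 0.25 against day 10 (adjusted p = 0.0211) and fell by 1.37 ± 0.25 against day 14 (adjusted p = 0.028). Col7a1, of the anchoring fibrils of skin, gave 6.76, 6.199 and 5.02 in knockout nerves and 6.22, 5.81 and 5.61 in wild-type nerves. The descent was steeper on the knockout arrays, and Col7a1 fell by 1.17 ± 0.30 at day 35 against day 10 (adjusted p = 0.0457). Col8a1, a short collagen of vessels and of the membrane behind the cornea, stood at 9.08, 8.86 and 7.99 in knockout nerves, against 8.56, 9.43 and 7.66 in wild-type nerves. Its day 35 values were the lowest, and Col8a1 fell by 1.32 ± 0.29 against day 14 (adjusted p = 0.0389).

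Col17a1, the hemidesmosome collagen, was the 1 collagen with a positive call. It stood at 4.65, 4.65 and 5.46 in knockout nerves at days 10, 14 and 35, against 4.38, 4.77 and 5.08 in wild-type nerves, and was detected on the day 35 arrays only. It entered the test through those arrays, the ones on which it is high, so its call supports nothing further. Because such a gene was not well above background at the earlier ages, its fold is a bound, set against the higher of its own signal and the lowest detected signal of each dim array: Col17a1 was at least 1.45-fold higher at day 35 than at day 10 (adjusted p = 0.0439). Col16a1, a collagen that sits on fibrils, gave 11.19, 10.82 and 9.81 in knockout nerves and 11.01, 9.61 and 10.96 in wild-type nerves. The low wild-type value was that of day 14 and the low knockout value that of day 35, so that the order of the genotypes turned between these ages; no age contrast passed. The other collagens of this class (Col14a1, Col28a1, Col8a2, Col10a1 and Col13a1) had differences between days 35 and 10 from -0.68 to 0.28, none of which passed.

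**Figure D2:**
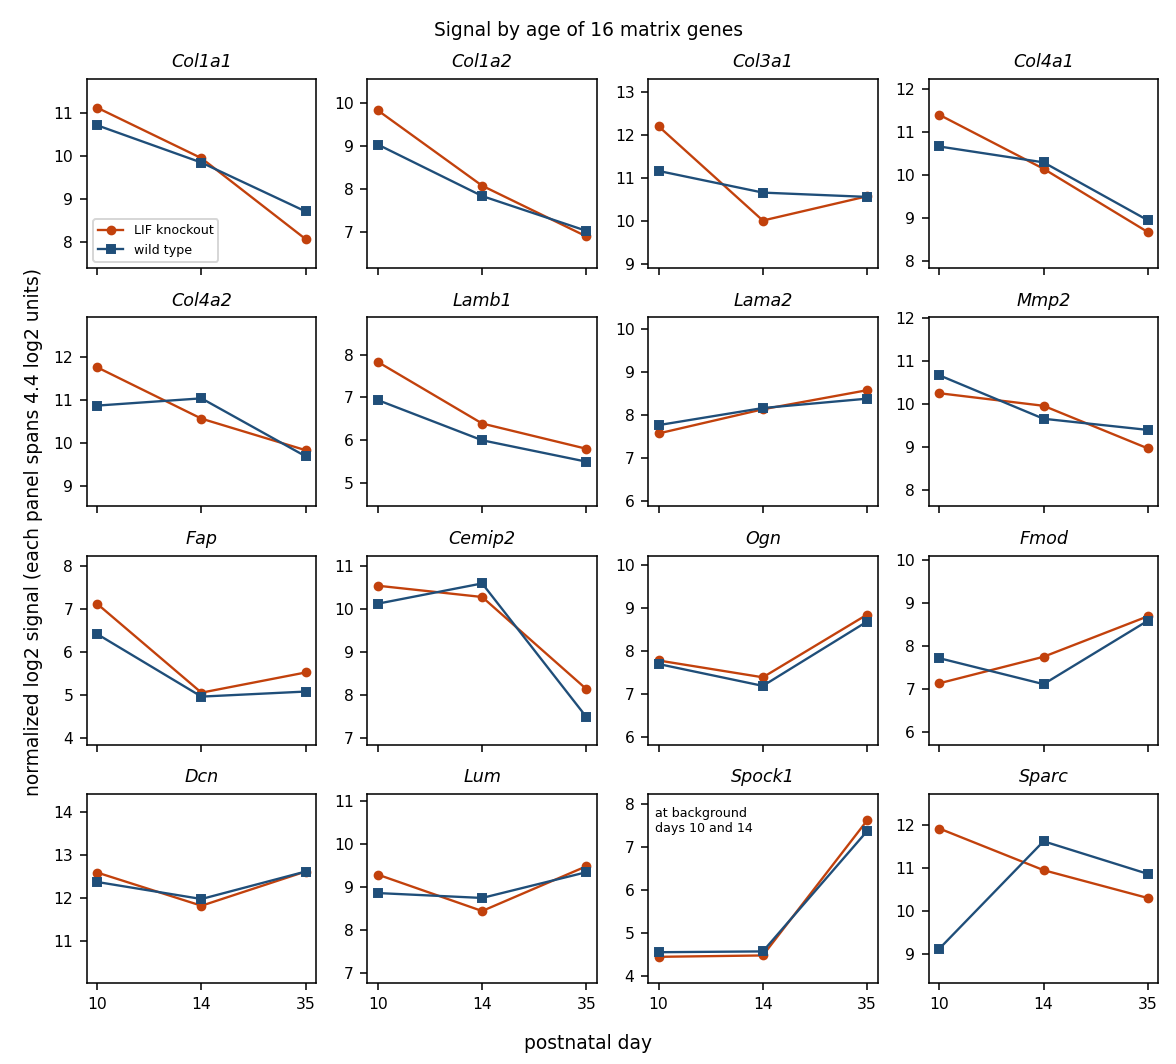
Log2 signal (vertical axis, each panel spanning the same number of log2 units) at postnatal days 10, 14 and 35 (horizontal axis) for 16 matrix genes; orange circles are LIF knockout pools and blue squares wild-type pools, 1 array per point, so there are no error bars. Col1a1, Col1a2 and Col4a1 descend in both genotypes, Ogn and Spock1 stand highest at day 35, and Sparc has its low point, 9.11, in wild-type nerves of day 10.

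Laminins are the cross-shaped proteins that seed a basement membrane, each built of an alpha, a beta and a gamma chain. Of 6 laminin genes, 2 fell and 1 rose at day 35 against day 10, where 12.8% of named genes fell and 10.6% rose. Lamb1, the beta chain of early laminins, stood at 7.83, 6.39 and 5.81 in knockout nerves at days 10, 14 and 35, against 6.94, 6.005 and 5.51 in wild-type nerves. Both genotypes descended at each step with the knockout array above wild type at every age, and Lamb1 fell by 1.73 ± 0.20 at day 35 against day 10 (adjusted p = 0.0106). Lamc1, the gamma chain found in most laminins, gave 10.50, 10.25 and 9.62 in knockout nerves and 10.10, 10.21 and 9.57 in wild-type nerves. The day 35 values lay below the other 4, and Lamc1 fell by 0.71 ± 0.18 against day 10 (adjusted p = 0.0427). Lama5, an alpha chain of vessel and epithelial basement membranes, stood at 6.36, 6.58 and 5.3995 in knockout nerves, against 5.97, 6.90 and 5.50 in wild-type nerves. Day 14 was highest in both genotypes, and Lama5 fell by 1.28 ± 0.22 at day 35 against day 14 (adjusted p = 0.0263).

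Lama2 went the other way. This alpha chain, whose loss causes a congenital muscular dystrophy with white matter changes in people, stood at 7.57, 8.13 and 8.58 in knockout nerves at days 10, 14 and 35, against 7.76, 8.16 and 8.38 in wild-type nerves. Both genotypes climbed at each step without overlap between ages, and Lama2 rose by 0.81 ± 0.17 at day 35 against day 10 (adjusted p = 0.0312). Lamb2, the beta chain of mature laminins, gave 9.10, 9.51 and 8.75 in knockout nerves and 9.11, 9.44 and 8.91 in wild-type nerves. Day 14 was highest in both genotypes, and the -0.65 between days 35 and 14 just missed the threshold (adjusted p = 0.0515). Lama4, a vessel laminin chain, stayed between 7.18 and 7.48.

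Fibrillins and fibulins belong to microfibrils, elastic fibres and basement membranes. Fbn2, the fibrillin of developing microfibrils, stood at 7.70, 7.05 and 5.54 in knockout nerves at days 10, 14 and 35, against 7.20, 6.51 and 5.79 in wild-type nerves. The day 35 values were the lowest, and Fbn2 fell by 1.78 ± 0.24 against day 10 (adjusted p = 0.0132) and fell by 1.12 ± 0.24 against day 14 (adjusted p = 0.0385). Fbln2, a fibulin that binds fibronectin and basement membrane proteins, gave 9.64, 7.79 and 7.15 in knockout nerves and 8.23, 8.53 and 7.45 in wild-type nerves. Its knockout value of day 10 stood 1.41 above wild type and above the other arrays, and the -1.63 ± 0.50 between days 35 and 10 missed the threshold (adjusted p = 0.0703). Fbln1 stood at 8.38, 8.51 and 7.99 in knockout nerves, against 9.16, 8.31 and 8.46 in wild-type nerves; its difference of -0.55 did not pass, and a second probe of Fbln1 gave 1.14.

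Of 7 Mmp genes, 3 fell at day 35 against day 10 and none rose, where 12.8% of named genes fell and 10.6% rose. These 3 are the collagenolytic partners Mmp14 and Mmp2 and the membrane-anchored protease Mmp23. Mmp14, which sits in the cell membrane and activates Mmp2, stood at 11.06, 10.27 and 9.38 in knockout nerves at days 10, 14 and 35, against 10.79, 10.02 and 9.88 in wild-type nerves. All values dropped with age, and Mmp14 fell by 1.29 ± 0.24 at day 35 against day 10 (adjusted p = 0.0227). Mmp2, gelatinase A, gave 10.26, 9.97 and 8.98 in knockout nerves and 10.68, 9.67 and 9.41 in wild-type nerves. Here too each age lay below the one before, and Mmp2 fell by 1.28 ± 0.23 (adjusted p = 0.0224). Mmp23 stood at 8.48, 7.90 and 7.02 in knockout nerves, against 8.14, 7.62 and 7.14 in wild-type nerves. The ages did not overlap, and Mmp23 fell by 1.23 ± 0.19 (adjusted p = 0.0159). Mmp9, Mmp11, Mmp17 and Mmp19 differed between days 35 and 10 by -0.58 to 0.11, and none passed.

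Since LIF acts through STAT3, the windows were searched on both strands for the STAT motif TTCNNNGAA. It occurred in 8.89% of the windows of matrix genes and in 8.3% of all windows; the genes that hold it are Col28a1, Lamb2 and Mmp23. Of these, only Mmp23 passed an age contrast, and the 3 genes differed between genotypes by at most 0.34 at any age. Mmp23 has 2 windows in the table; 1 of them, chr4:155653335-155653634 on the minus strand, is shown with the motif in capitals.
Mmp23: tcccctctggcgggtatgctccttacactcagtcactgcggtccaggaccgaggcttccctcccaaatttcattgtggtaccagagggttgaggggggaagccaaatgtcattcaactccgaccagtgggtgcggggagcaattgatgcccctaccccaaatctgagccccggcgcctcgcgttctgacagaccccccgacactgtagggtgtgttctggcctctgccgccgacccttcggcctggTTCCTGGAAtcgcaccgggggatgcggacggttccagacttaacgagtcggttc

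Of 4 Timp genes, whose products inhibit these proteases, none passed in any contrast with its brightest probe. Timp2, which also helps Mmp14 to activate Mmp2, stood at 11.77, 11.40 and 10.95 in knockout nerves at days 10, 14 and 35, against 11.68, 11.35 and 11.31 in wild-type nerves. The values at day 35 were the lowest, with a difference of -0.59 ± 0.18 between days 35 and 10 (adjusted p = 0.0722). Timp3, the inhibitor that binds to matrix, gave 11.57, 11.73 and 12.25 in knockout nerves and 11.78, 11.71 and 11.81 in wild-type nerves. Only the knockout value of day 35 stood apart, and the difference of 0.36 ± 0.21 did not pass (adjusted p = 0.255), whereas a dimmer probe of Timp3 rose by 1.53 ± 0.26 (adjusted p = 0.0204). Timp4 stood at 8.41, 7.81 and 8.72 in knockout nerves, against 7.57, 8.73 and 7.80 in wild-type nerves. The genotypes changed order at each age, by 0.85, -0.93 and 0.91. Timp1 ranged from 7.19 to 8.15.

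Among 7 genes of the Adamts family, 1 fell and 1 rose at day 35 against day 10, near the 12.8% and 10.6% of all named genes. Adamts7, a protease that cuts the cartilage protein COMP, stood at 5.96, 5.44 and 4.49 in knockout nerves at days 10, 14 and 35, against 5.98, 5.18 and 4.43 in wild-type nerves. It was not well above background on either day 35 array, so its folds are bounds. Adamts7 was at least 2.15-fold lower at day 35 than at day 10 (adjusted p = 0.00989) and at least 1.36-fold lower than at day 14 (adjusted p = 0.0316). It entered the test only through the arrays of days 10 and 14, on which it is high, so its calls support nothing further. Adamtsl4, which binds fibrillin and holds the lens in place, gave 7.45, 8.15 and 8.80 in knockout nerves and 7.83, 7.81 and 8.85 in wild-type nerves. Day 35 was highest in both genotypes, and Adamtsl4 rose by 1.18 ± 0.22 against day 10 (adjusted p = 0.0221). Adamts4, an aggrecanase that cuts brain proteoglycans, stood at 9.67, 11.02 and 9.77 in knockout nerves, against 10.47, 10.87 and 10.48 in wild-type nerves. It stood highest at day 14 in both genotypes, and its 0.88 between days 14 and 10 (adjusted p = 0.338) and -0.82 between days 35 and 14 (adjusted p = 0.0921) did not pass. Adamts15 gave 5.81, 6.05 and 5.45 in knockout nerves and 6.24, 6.005 and 5.95 in wild-type nerves, with no contrast passed, and Adamts5, Adamts8 and Adamts17 differed by -0.89 to -0.49 between days 35 and 10 without passing.

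The small leucine-rich proteoglycans, which coat collagen fibrils, were not among the genes that fell. Ogn (osteoglycin) stood at 7.79, 7.40 and 8.86 in knockout nerves at days 10, 14 and 35, against 7.71, 7.20 and 8.70 in wild-type nerves. The genotypes lay within 0.20 of each other at each age, and Ogn rose by 1.48 ± 0.16 at day 35 against day 14 (adjusted p = 0.0175) and rose by 1.03 ± 0.16 against day 10 (adjusted p = 0.0161); a second probe of Ogn gave 1.74 against day 10. Fmod (fibromodulin) gave 7.13, 7.75 and 8.69 in knockout nerves and 7.72, 7.11 and 8.59 in wild-type nerves. Days 10 and 14 overlapped and day 35 lay above both, and Fmod rose by 1.21 ± 0.30 against day 10 (adjusted p = 0.0421).

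Dcn (decorin) stood at 12.59, 11.82 and 12.61 in knockout nerves, against 12.37, 11.97 and 12.61 in wild-type nerves. Day 14 was the low age in both genotypes, and Dcn rose by 0.72 ± 0.17 at day 35 against day 14 (adjusted p = 0.0478). Against day 10 the difference was 0.13, with 0.24, 0.70 and 1.08 from its other probes. Lum (lumican) gave 9.28, 8.44 and 9.48 in knockout nerves and 8.85, 8.74 and 9.34 in wild-type nerves, the same dip at day 14; its 0.82 between days 35 and 14 missed the threshold (adjusted p = 0.0591).

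Spock1 (testican), a proteoglycan of the nervous system, was at background on all 4 arrays of days 10 and 14 and clearly detected at day 35. It stood at 4.44, 4.47 and 7.61 in knockout nerves at days 10, 14 and 35, against 4.54, 4.56 and 7.36 in wild-type nerves. Both genotypes showed the same step. Spock1 entered the test only through the day 35 arrays, on which it is high, so its call supports nothing further; Spock1 was at least 6.74-fold higher at day 35 than at day 10 (adjusted p = 0.00876) and at least 6.87-fold higher than at day 14 (adjusted p = 0.0143). Its window, chr13:57908283-57908582 on the minus strand, is shown as that of a gene switched between ages; the AP-1 motif TGANTCA, in capitals, occurred in 4.44% of the windows of matrix genes (Col6a1 and Spock1) and in 7.81% of all windows. TATAAA, the TATA box, occurred in 11.1% of the windows of matrix genes and in 13.6% of all.
Spock1: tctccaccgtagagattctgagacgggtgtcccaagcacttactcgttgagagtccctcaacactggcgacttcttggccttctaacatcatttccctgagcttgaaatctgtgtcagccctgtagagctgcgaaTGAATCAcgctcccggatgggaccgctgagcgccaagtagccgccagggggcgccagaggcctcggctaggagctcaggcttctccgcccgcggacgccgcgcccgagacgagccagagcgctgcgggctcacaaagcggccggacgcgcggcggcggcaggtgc

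Cemip2, a cell-surface protein reported to degrade hyaluronan in mice, fell after day 14. It stood at 10.54, 10.28 and 8.13 in knockout nerves at days 10, 14 and 35, against 10.12, 10.59 and 7.48 in wild-type nerves. Days 10 and 14 overlapped and both day 35 arrays lay more than 1 unit lower; Cemip2 fell by 2.63 ± 0.26 against day 14 (adjusted p = 0.0175) and fell by 2.52 ± 0.26 against day 10 (adjusted p = 0.00977), with -2.93 from a second probe. Fap, a serine protease of activated fibroblasts, had its drop earlier, at 7.13, 5.06 and 5.53 in knockout nerves and 6.43, 4.97 and 5.09 in wild-type nerves. The values of day 10 stood above the other 4, and Fap fell by 1.47 ± 0.20 at day 35 against day 10 (adjusted p = 0.0132). Fn1, fibronectin, gave 8.74, 8.91 and 9.78 in knockout nerves and 8.98, 9.31 and 9.15 in wild-type nerves; the ages overlapped, and its 0.61 between days 35 and 10 did not pass (adjusted p = 0.167), nor did the -0.14 of a second probe.

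Of 28 listed enzymes and helpers that hydroxylate, fold, trim and crosslink collagen, 22 were measured. At day 35 against day 10, 8 fell, 2 rose and 12 did not pass (12.8% of named genes fell and 10.6% rose), with a median difference of -0.38 (all named genes -0.08). Serpinh1, the collagen chaperone HSP47, stood at 11.95, 11.40 and 10.64 in knockout nerves at days 10, 14 and 35, against 12.10, 11.03 and 11.16 in wild-type nerves. Day 10 was highest in both genotypes, and Serpinh1 fell by 1.13 ± 0.24 (adjusted p = 0.0308). Ppib, a prolyl isomerase of the same folding pathway, fell by 1.06 ± 0.16, and the crosslinking enzyme Loxl1 fell by 1.06 ± 0.22. Lox, lysyl oxidase itself, gave -1.42 ± 0.38 and missed the threshold (adjusted p = 0.0507). Plod1 (-0.65), P3h1 (-0.85), P3h3 (-0.96), Colgalt1 (-0.76) and Bmp1 (-1.02), which modify collagen residues or trim the procollagen ends, also fell. The 2 that rose were P3h2 (0.75), a prolyl hydroxylase detected on 3 of 6 arrays, and Pcolce2 (1.57), which enhances the trimming of procollagen.

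Of 19 listed receptors for collagen and laminin, 13 were measured, and at day 35 against day 10, 5 fell and none rose, where 12.8% of named genes fell and 10.6% rose. Itga6, an integrin chain that binds laminin, stood at 9.08, 8.75 and 6.92 in knockout nerves at days 10, 14 and 35, against 8.62, 8.02 and 7.05 in wild-type nerves. Both genotypes were lowest at day 35, and Itga6 fell by 1.86 ± 0.24 (adjusted p = 0.0118). Dag1, the dystroglycan that binds laminin, fell by 1.34 ± 0.18, the collagen receptor Ddr2 fell by 1.22 ± 0.27, the syndecan Sdc3 fell by 1.42 ± 0.19, and Lrp1, a scavenger receptor, fell by 0.63.

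Split by interval, the timing of the fall could be tested only in part. At day 35 compared with day 14, 11 of 63 matrix genes fell and 3 rose, against 8.78% and 7.5% of all named genes, with a median difference of -0.44 over the matrix genes and -0.05 over all named genes. The 11 were Col1a1, Col4a1, Col8a1, Col9a2, Col15a1, Col23a1, Col26a1, Lama5, Fbn2, Adamts7 and Cemip2, and the 3 were Dcn, Ogn and Spock1. Adamts7 and Spock1 entered the test only through ages at which they are high. In both genotypes 37 of 63 were lower at day 35 than at day 14, where 42.4% of named genes were, and 12 were higher (35% of named genes). Fewer than these 14 passed whenever 1 array was left out, and calls over all probes dropped in the same fits. This held even without a day 10 array, which leaves the differences of this interval as they were (Col1a1 -1.51 in both fits). The drop is therefore not particular to the matrix genes. At day 14 compared with day 10, 0 of 63 passed in limma, as did 0% of all probes. An unadjusted p below 0.05 was found for 1718 of 13827 probes and for 20 of the 63 matrix genes. The 4 with the lowest adjusted p were Fap (-1.76 ± 0.20, adjusted p = 0.237), Col1a2 (-1.47 ± 0.25), Lamb1 (-1.18 ± 0.20) and Col26a1 (-1.54 ± 0.31, adjusted p = 0.291), all lower at day 14. In both genotypes 29 of 63 were lower at day 14 than at day 10 and 10 higher, against 31.6% and 28.1% of named genes.

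Some of these calls depended on 1 choice of processing. Without the filter on dim probes, where all 24606 probes were tested, 20 of the calls were lost and 20 stayed. Among those lost between days 35 and 14 were Col1a1, Col4a1 and Col26a1 (limma, adjusted p = 0.0711, 0.0805 and 0.0873). Col17a1 and Lama2 did not pass without normalization between arrays (adjusted p = 0.1 and 0.126), nor did Lama2 and Fmod in the authors' deposited table (adjusted p = 0.0672 and 0.0558). Col7a1 and Col17a1 missed the threshold without background correction or with an offset of 50, and Col7a1 and Lamc1 without the day 14 arrays. Col6a1, whose probes disagree, gave -0.29 as the mean of its probes (adjusted p = 0.23). Between days 35 and 14, Col8a1, Col15a1 and Dcn were lost without normalization between arrays, Dcn as the mean of its probes, and Fbn2 and Adamts7 with an offset of 50.

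Markers of the cells that make or border the matrix were set beside these counts. Of 24 meningeal and fibroblast markers outside the matrix list, 18 were measured. At day 35 against day 10, 1 of them fell (Pdgfrb, by 0.89) and none rose, with a median of 0.05 where the matrix genes had -0.59. Over all named genes 12.8% fell and 10.6% rose, with a median of -0.08. The counts of this and the following marker lists, all short, are to be read beside these shares. The genotypes differed in sign here: the marker median was 0.34 in knockout nerves and -0.23 in wild-type nerves, where 13 of 18 were lower. The matrix genes had -0.81 and -0.49. The summed signal of the 18 markers was 53762 in knockout and 54606 in wild-type nerves at day 35, against 58607 and 64953 at day 10. Summed signals, here and below, add up deposited intensities that were not normalized between arrays. The mean intensity of all probes was 254 and 256 on the knockout and wild-type arrays of day 35, and 310 and 281 on those of day 10. Mural cell markers had 2 of 9 lower, 1 of them again Pdgfrb, which stands in both lists, and a median of -0.32, endothelial markers 3 of 17 higher and a median of -0.13. Red cell markers had a median of -1.80 and the 3 measured fat markers -2.53, with 1 of each past the threshold. Mature oligodendrocyte markers had 4 of 11 higher and a median of 0.68. The part of these cells in the result was not tested.

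**Figure D3:**
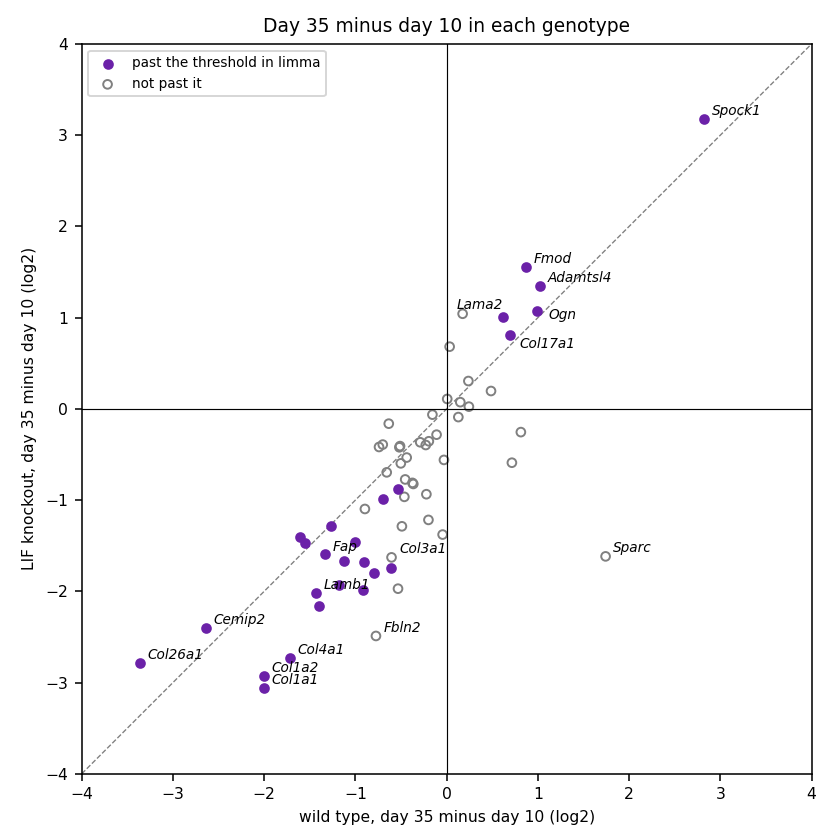
Difference between day 35 and day 10 of each of the 63 matrix genes in knockout nerves (vertical axis, log2) against wild-type nerves (horizontal axis, log2), 1 point per gene; filled points passed the limma test and open points did not, and the dashed line marks equal differences. Points with both differences below 0 are the 46 genes lower at day 35 in both genotypes, and Sparc lies far off the line.

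Between genotypes no matrix gene passed a test. For knockout minus wild type over the ages, 0 of 63 passed in limma, as did 0% of all probes. An unadjusted p below 0.05 was found for 520 of 13827 probes and for 2 of the 63 matrix genes. These were Lamb1 (0.53 ± 0.17) and Fap (0.41 ± 0.16), both with an adjusted p of 0.989. At single ages, with no test, the median knockout minus wild-type difference was 0.22 at day 10 (40 of 63 above 0, where 50.8% of named genes detected on both arrays were), 0.04 at day 14 (33 above 0, 52.3% of named genes) and -0.13 at day 35 (24 above 0, 45% of named genes). The median of day 14 became -0.19 without normalization between arrays.

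At day 10, 3 of the 63 matrix genes were detected on both arrays and lay more than 1 log2 unit apart, all higher in knockout nerves. Of named genes detected on both arrays 3.94% lay that far apart, so the share of matrix genes is near that of all genes. Over all named genes 118 of these 249 were higher in knockout nerves and 131 lower. Sparc, a glycoprotein that binds collagen and helps to place collagen IV and I, stood at 11.91, 10.94 and 10.29 in knockout nerves at days 10, 14 and 35, against 9.11, 11.61 and 10.85 in wild-type nerves. The wild-type array of day 10 was the low one of the 6, 2.80 below its knockout counterpart, while at days 14 and 35 the knockout value was lower, by -0.67 and -0.56. The other 2 were Fbln2 (1.41) and Col3a1 (1.04), whose knockout arrays of day 10 were the high ones. In the model that sets the difference at day 10 apart from that of the later ages, 0 of 63 passed in limma, as did 0% of all probes. An unadjusted p below 0.05 was found for 733 of 13827 probes and for 8 of the 63 matrix genes. Among the 8 were Sparc (3.41 ± 0.27), Fbln2 (1.94 ± 0.33), Col3a1 (1.36 ± 0.39), Col4a2 (1.06 ± 0.37), Col4a1 (0.95 ± 0.27) and Col9a1 (0.95 ± 0.27), each with an adjusted p of 0.884. When arrays were not normalized to each other, Sparc was the 1 matrix gene that passed.

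Other cells differed at day 10 too. The knockout array of that age had a summed fat marker signal of 3130, against 388 in wild type, and a summed red cell signal of 26344, against 13005. Its endothelial markers summed to 10471, against 6463 in wild type, with a median difference of 0.49 over 17 genes, and its mature oligodendrocyte markers had a median difference of -0.93 over 11. Its 18 meningeal and fibroblast markers had a median difference of -0.45, with sums of 58607 in knockout and 64953 in wild-type nerves. The part of these cells in the differences of Sparc, Fbln2 and Col3a1 was not tested.

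At day 14, Col16a1 (1.22) and Col26a1 (1.04) were higher in knockout nerves by more than 1 unit, where 1.08% of named genes lay that far apart. At day 35, Col16a1 was lower in knockout nerves (-1.15), where 2.66% of named genes did. Skeletal muscle markers at day 35 summed to 10375 in knockout and 1065 in wild-type nerves, with a median difference of 2.81 over 15 genes, and their part in the day 35 values was not tested.

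**Figure D4:**
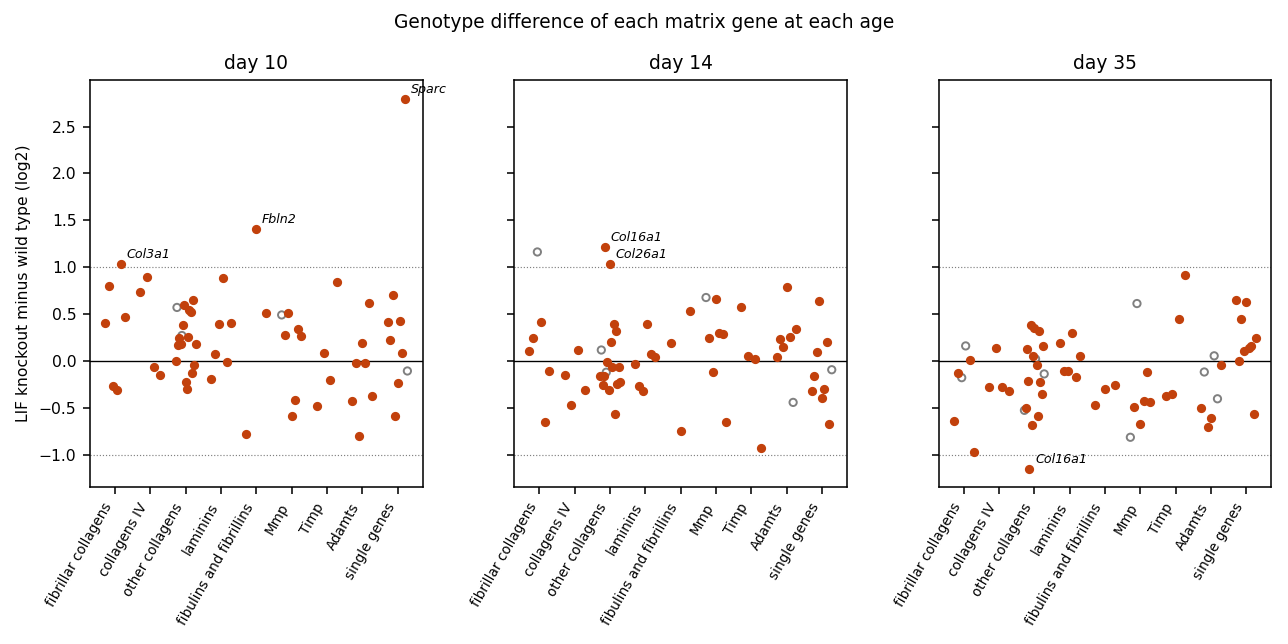
Knockout minus wild-type difference in log2 signal (vertical axis) of each matrix gene, by class (horizontal axis), at days 10, 14 and 35 (panels); each point is 1 gene from 1 pair of arrays, open points were not detected on both arrays, and dotted lines mark 1 log2 unit. Only Sparc, Fbln2 and Col3a1 at day 10, Col16a1 and Col26a1 at day 14 and Col16a1 at day 35 lie beyond those lines among the filled points.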

How the data were processed

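RNA of 6 pools of optic nerve (TRIzol, Illumina TotalPrep labelling, per the labels' protocols) was read on 6 Illumina MouseRef-8 bead arrays, 1 per genotype and age. The per-array files hold the mean bead intensity per probe, which the authors exported from BeadStudio 1.5.0.34 without normalization, per the file headers. Beside it stands a detection score, deposited by the authors from the same program as a fraction from 0 to 1, and read here as 1 minus the detection p. The authors' deposited series table holds scaled intensities, with 15646 of 24613 probes blank. Gene names came from that table's identifiers: its probes were linked to the array files by their values within 0.05 signal units, which linked 8934 probes, 8047 of them with 1 symbol. Where a design identifier carried a gene number (3182 probes), 97.11% were equal to the linked gene.

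Intensities were background-corrected (normexp from the detection p, offset 16), quantile normalized and taken to log2 with limma 3.58.1 in R 4.3.3. Probes with a detection p below 0.05 on at least 2 arrays were tested (13827), in 1 model over the 6 arrays with day as a factor and genotype, and in a second model that lets day 10 have its own genotype difference, which leave 2 and 1 residual degrees of freedom. P-values are two-sided and adjusted by Benjamini-Hochberg over all probes tested, at a threshold of 0.05. A gene was represented by its brightest probe, and linking and tests were checked on simulated data. Genes given on all 6 arrays are those that passed a contrast, those beyond 1 log2 unit between genotypes at an age, the 3 brightest of each class and the 9 single genes. Genes, lists and tests were chosen with earlier results of these data known. Alternatives to the background correction, offset, normalization, filter, probe choice, value table and arrays used were run. Collagen protein sequences were not used here. Promoter windows are from RefSeq.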

Additional observations from a re-analysis of the deposited data

Results flagged for a closer look

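Col16a1, a collagen that sits on fibrils, was 1.22 log2 units higher in knockout than in wild-type nerves at day 14 and lower at day 35, by -1.15, so that the genotypes stood in opposite order at these ages. The values were 10.82 in knockout and 9.61 in wild-type nerves at day 14, and 9.81 in knockout and 10.96 in wild-type nerves at day 35. With 1 array per genotype and age the difference between the ages was not tested.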

How the results depend on the processing

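No age contrast that a matrix gene had passed changed direction in the alternatives run. The direction of contrasts that had not passed was not checked gene by gene. Of the medians over the matrix genes, 1 changed sign, that of the genotype difference at day 14. Between days 35 and 10, the 26 matrix genes that passed became 15 without the filter on dim probes, where all 24606 probes were tested, and 0 to 25 when 1 array was left out. Between days 35 and 14, the 14 became 5 without that filter, 0 without the day 10 arrays, and 0 to 9 when 1 array was left out; each such fit has 1 residual degree of freedom. The term for day 10 had 0 calls, and 1 (Sparc) without normalization between arrays. The median knockout minus wild-type difference at day 14 was 0.04, and -0.19 without normalization between arrays. The median between days 14 and 10 was -0.14, against -0.32 without that normalization, -0.35 over probes detected on all 6 arrays, -0.35 in the authors' deposited table and -0.32 in knockout nerves alone. Between days 35 and 14 it was -0.44, against -0.27 with an offset of 50, -0.63 in knockout nerves alone and -0.20 in wild-type nerves alone. Between days 35 and 10 it was -0.59, against -0.78 without normalization between arrays, -0.39 with an offset of 50 and -0.81 in knockout nerves alone. The cause of these shifts was not tested. Gene by gene, the 26 and 14 age contrasts that had passed were refitted under each alternative. Of these refits, 261 passed again and 51 did not. When 1 array was left out, more refits were lost than passed again. Contrasts that had not passed are not in these counts. Knockout and wild type were already paired within each age by the day term of the model. Signals near background limit the dim genes.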

Other observations

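Other matrix proteins outside the families above also differed between ages. Of 53 listed proteoglycans and glycoproteins, 38 were measured, and at day 35 against day 10, 16 fell and 4 rose (limma), with a median difference of -0.47. Over all named genes 12.8% fell and 10.6% rose, so the share of this list that rose is near that of all genes. Eln, elastin, stood at 12.28, 11.54 and 9.88 in knockout nerves at days 10, 14 and 35, against 11.98, 11.61 and 9.72 in wild-type nerves, and fell by 2.33 ± 0.17 (adjusted p = 0.00876). The microfibril genes Mfap2 (-1.81) and Mfap4 (-1.42) fell too, as did the basement membrane proteoglycans Hspg2 (-1.42) and Agrn (-1.01). Tnc, a tenascin of developing tissue, stood at 9.44, 7.17 and 6.44 in knockout nerves, against 7.88, 7.89 and 6.22 in wild-type nerves, and fell by 2.33 ± 0.51 (adjusted p = 0.032); the knockout array of day 10 was the high one.

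Hapln2, a link protein of the matrix at nodes of Ranvier, stood at 4.54, 7.0003 and 10.10 in knockout nerves at days 10, 14 and 35, against 5.49, 6.76 and 9.80 in wild-type nerves, and passed with a positive difference (adjusted p = 0.00876). It was detected on 1 of the 2 day 10 arrays, the wild-type one, so no fold is given. Of the small leucine-rich proteoglycans outside the list above, Omd rose by 1.54 ± 0.18 (adjusted p = 0.0105) and Prelp rose by 0.999 ± 0.16 (adjusted p = 0.0182), like Ogn and Fmod. Of 18 listed genes of TGF-beta signalling and matrix induction, 13 were measured; 3 rose, among them Ccn2, a matrix-inducing growth factor (1.83 ± 0.21, adjusted p = 0.0104), with Tgfbr1 (1.06) and Tgfbr3 (1.26), and none fell, where 10.6% of named genes rose and 12.8% fell.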
